A study of Mus musculus with 12 samples.

Results

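Chemokine receptors of gut lymphocytes were followed in ILC3s (group 3 innate lymphoid cells, tissue lymphocytes that lack antigen receptors) of the mouse small intestine. The genes were listed by name: Cxcr6, Ccr6, Ccr9, Ccr7, Cxcr5, Cxcr3, Cxcr4, Ccr2 and Cx3cr1. All 9 were found among the 23284 genes of the expression table, and all 9 were among the 12502 genes tested (those that reached 1 FPKM in 3 or more libraries, FPKM being fragments per kilobase of transcript scaled to the mapped fragments). Chemokine receptors are G protein-coupled receptors that let a lymphocyte sense small secreted proteins, the chemokines, and move towards their source. In the gut, epithelial cells and stromal cells secrete different chemokines, so the receptors a lymphocyte carries bear on whether it enters the tissue, settles in a lymphoid follicle, stays near the epithelium or leaves in the lymph. CXCR6, CCR6 and CCR9 are known on gut ILC3s, while CCR7 and CXCR5 guide cells in lymphoid organs.

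The cells came from mice of the hairless HR-1 strain at 18 weeks of age, which had been nursed either by mothers on palmitic acid-supplemented chow (PA milk) or by mothers on normal diet (ND). According to the paper, PA milk pups were born to ND mothers and moved after birth to mothers on the palmitic acid chow. No such move is described for ND pups. The food was changed back to normal diet at weaning, so the groups differ in early milk and not in later diet. ILC3s were sorted from the intraepithelial lymphocyte layer (IEL) and from the lamina propria (LP), the connective tissue below the epithelium, giving 3 libraries in each of 4 groups: ND IEL, PA IEL, ND LP and PA LP. According to the methods, the sort gate took lineage-negative cells positive for CD4, Thy1.2, CD25 and Nrp1, whereas a legend names CD45 in place of CD4. Whether same-numbered IEL and LP libraries came from 1 mouse, and whether animals were pooled, is not stated, so p-values measure only the spread between these libraries, which may be in part technical. RNA was turned into full-length cDNA and amplified by PCR with a kit for very small inputs, without strand information and without molecular identifiers. In such bulk samples, fewer cells of a type and less RNA per cell cannot be told apart.

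The libraries held 8.76 to 14.57 M reads (M being 1000000), recovered from the spacing of low values, and 4390 to 11378 genes at an FPKM of 1 or more. Replicates of a group agreed unevenly, with Spearman correlations across tested genes of 0.48 to 0.90. PA IEL replicate 2 and PA LP replicate 2 held the fewest genes, 4390 and 5637, followed by ND IEL replicate 2 with 7863 and PA LP replicate 1 with 8406. The gate was not matched by its own transcripts in every library. Thy1, the gene of the gate marker Thy1.2, was listed at 0 in 5 of the 12 libraries, Ptprc (CD45) was at 0.0433 FPKM in PA IEL replicate 2, and Il2ra (CD25) was at 0 to 0.130 FPKM in ND IEL replicate 2, PA IEL replicate 2 and both of PA LP replicates 1 and 2. Nrp1 was at 2.31, 0, 5.07 and 0.0160 FPKM in those 4 libraries, in that order. Cd4 was at 1.89, 26.1, 0 and 55.8 FPKM there, so it was present in the 2 libraries in which Nrp1 was near 0. Of 16 genes of ILC3s and the gate, 2 reached 1 FPKM in PA IEL replicate 2, 5 and 6 in PA LP replicates 2 and 1, 8 in ND IEL replicate 2 and 11 to 16 in the other libraries. Id2, which innate lymphoid cells require, was at 95.2 to 749.6 FPKM in all 12 libraries. Epithelial marker genes summed to 24670 to 92520 FPKM in ND IEL, 5008 to 57250 in PA IEL, 3038 to 6207 in ND LP and 376.6 to 1953 in PA LP.

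Each receptor was either plainly there or absent at this depth. Of the 108 values (9 genes in 12 libraries), 71 rested on at least 19 reads and lay at 0.934 FPKM or above. The other 37 rested on at most 2 reads and lay at 0.0925 FPKM or below, 28 of them listed at 0. A floor of 3 reads, taken per library, corresponded to 0.0463 to 0.272 FPKM depending on the gene and library, and covers counting error only. Values at or under it are given without an order. Counting the receptors above the floor, ND LP had 8 of 9 in every library, ND IEL had 9, 3 and 8, PA IEL had 7, 3 and 7, and PA LP had 1, 1 and 8 (replicates 1, 2 and 3).

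**Figure D1:**
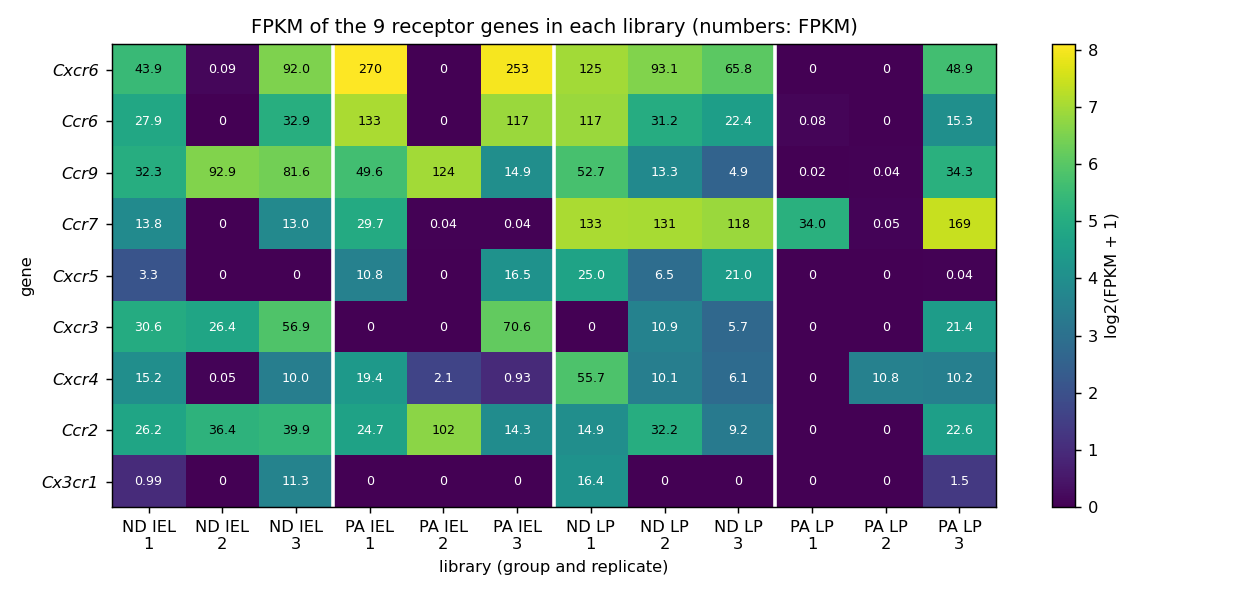
FPKM of the 9 receptor genes (rows) in the 12 libraries (columns, by group and replicate); the colour is log2(FPKM + 1) and the number in each cell is the FPKM. Replicate 2 of ND IEL and of PA IEL and replicates 1 and 2 of PA LP each hold at most 3 receptors above the floor, against 7 to 9 in the other 8 libraries.

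PA LP replicates 1 and 2 carried the least receptor transcript. The summed FPKM of the 9 genes was 34.2 and 10.9 there and 155.9 to 539.1 in the other 10 libraries. Those libraries were not short of leukocyte transcript to the same degree: 30 genes common to leukocytes had a mean log2(FPKM + 1) of 5.27 in PA LP replicate 1 and 6.12 in PA LP replicate 2, against 5.45 to 6.71 elsewhere. The receptors amounted to 0.999% and 0.191% of the summed FPKM of those leukocyte genes in PA LP replicates 1 and 2, to 3.12% in PA IEL replicate 2 and to 4.27% to 16.5% in the other 9 libraries. Among all tested genes, 66.0% reached 1 FPKM in PA LP replicate 1 and 44.2% in PA LP replicate 2, where 1 of the 9 receptors did so in each.

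The layers differed in which receptor made up most of the sum. Cxcr6 was the largest part in ND IEL replicates 1 and 3 (22.6% and 27.3%) and in PA IEL replicates 1 and 3 (50.2% and 51.9%). Ccr7 was the largest part in all 3 ND LP libraries (24.6%, 39.8% and 46.6%) and in PA LP replicates 1 and 3 (99.7% and 52.3%). The exceptions were replicate 2 of each IEL group, in which Ccr9 and Ccr2 together made up 83.0% (ND) and 99.0% (PA milk), and PA LP replicate 2, in which Cxcr4 was 99.1% of a small sum. These shares compare levels per transcript length within a library.

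**Figure D2:**
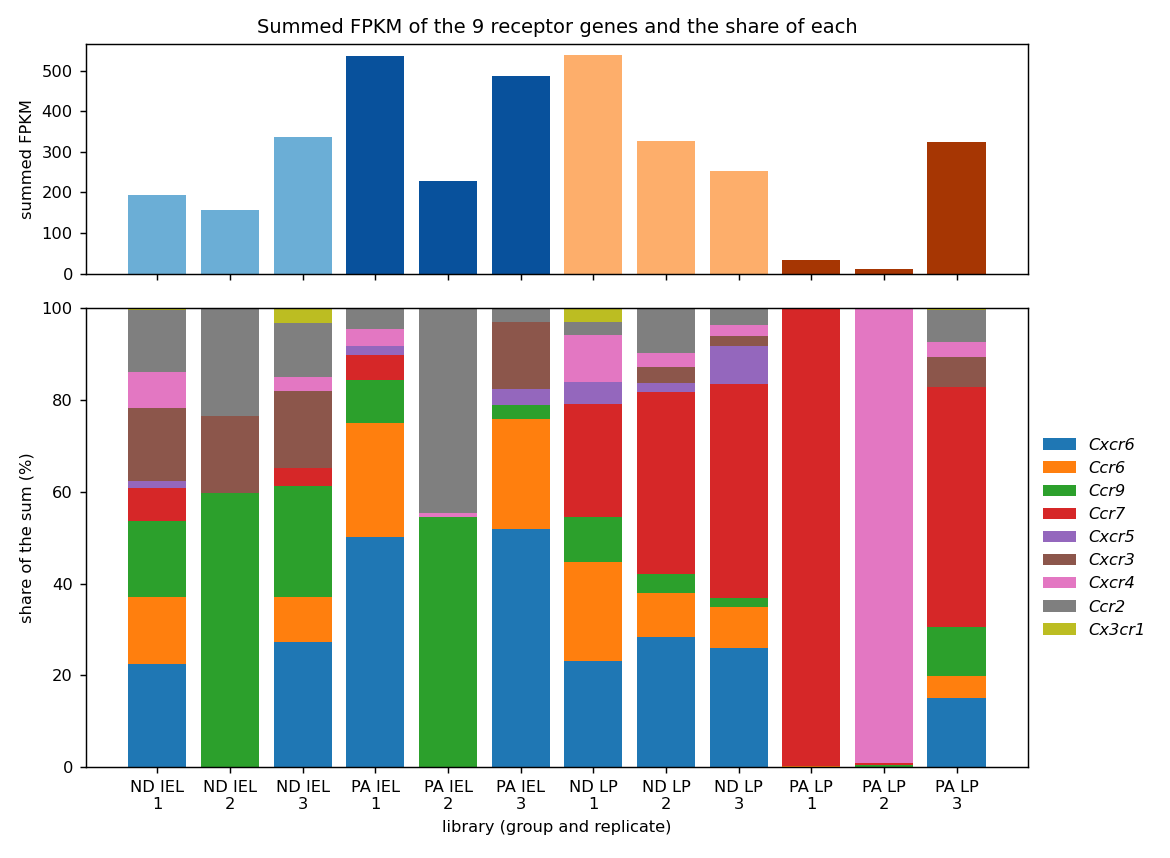
Upper panel, summed FPKM of the 9 receptor genes in each library, coloured by group; lower panel, the share of that sum (%) held by each receptor. Cxcr6 leads in 4 of the 6 IEL libraries and Ccr7 in 5 of the 6 LP libraries; the sum is 34.2 and 10.9 FPKM in PA LP replicates 1 and 2.

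The tests below compare mean log2(FPKM + 1) between groups with limma, with Benjamini-Hochberg adjustment over all 12502 tested genes and an adjusted p under 0.05 as the threshold. A log2 fold change on this scale understates the change of low genes. Directions, and counts of genes with a higher or lower log2 mean, refer to mean log2(FPKM + 1), which can differ in order from the mean FPKM where a library is near 0. Beside it stands whether the 3 libraries of one group all lay above the 3 of the other. The two-sided exact permutation test of 3 against 3 cannot go below p = 0.1, the value of any such separated pair. None of the 9 receptors passed the adjusted threshold in PA milk against ND in IEL, in PA milk against ND in LP, in the difference between those 2 effects, or in IEL against LP in ND or PA milk, where 0%, 0%, 0%, 0.032% and 0.144% of all tested genes did. On recovered reads, limma-voom also called 0 of the 9 in each comparison. At an unadjusted p under 0.05, limma had 0, 3, 1, 2 and 3 of the 9 receptors in the same order, beside 3.58%, 4.7%, 2.34%, 6.63% and 10.6% of all genes. These were Cxcr6, Ccr6 and Cxcr5 for PA milk in LP, Cxcr5 for the difference between the layers, Ccr7 and Cxcr5 between the layers in ND, and Ccr9, Ccr2 and Cxcr5 between the layers in PA milk.

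**Figure D3:**
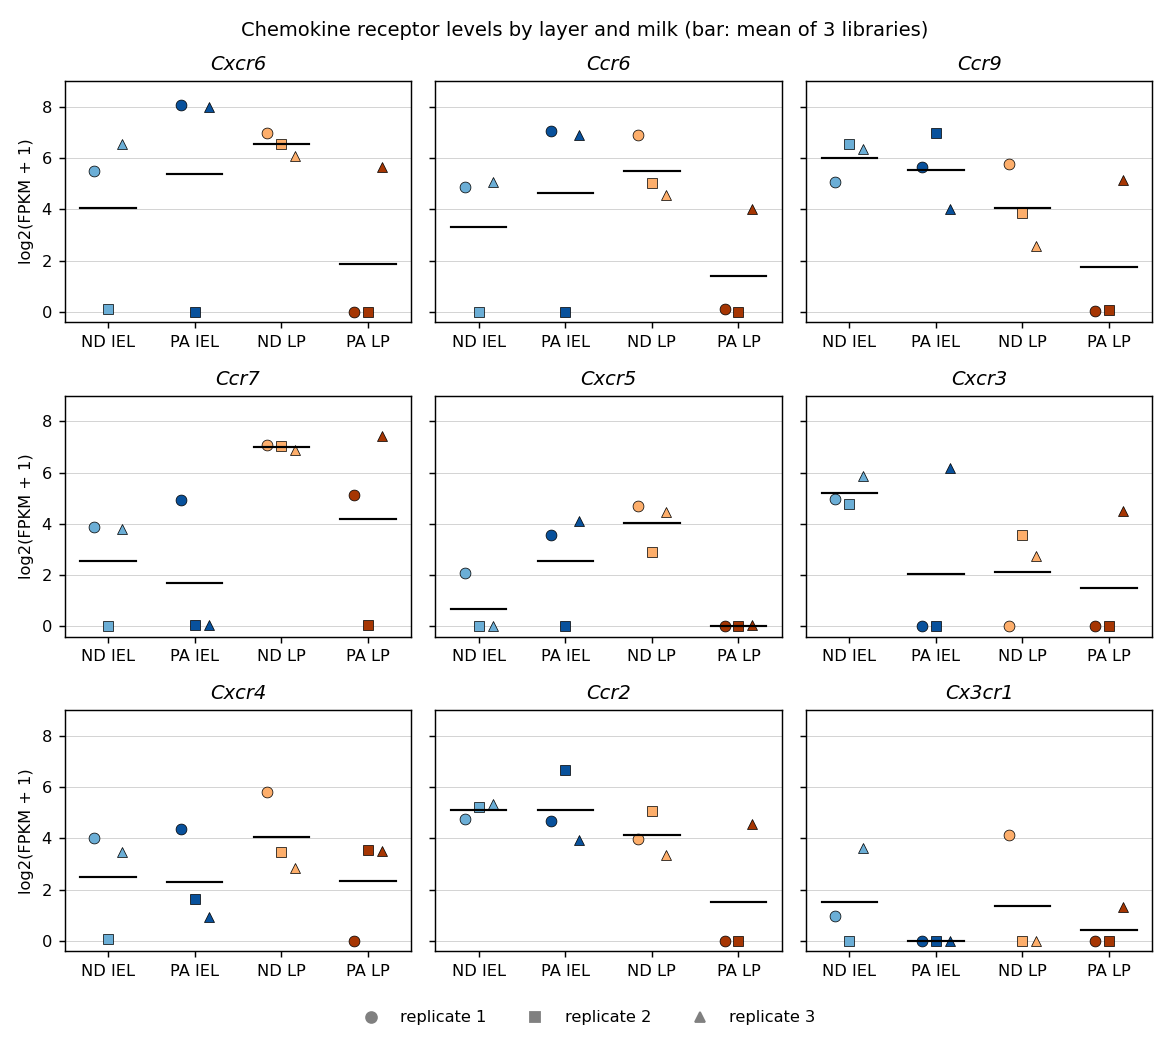
Log2(FPKM + 1) of each receptor gene in the 4 groups; each point is a library, its shape the replicate number, and the bar the mean of 3 libraries. Ccr7 is higher in each ND LP library than in any IEL library, Cxcr5 is at the floor in all 3 PA LP libraries, and Cxcr6 in PA IEL shows 1 library at 0 beside 2 at about 8.

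CXCR6 is the receptor of CXCL16 and holds lymphocytes in tissues, and CCR6, the receptor of CCL20, draws ILC3s to the follicles of the gut. Cxcr6 lies at chr9:123806475-123811760 (GRCm38, plus strand), inside Fyco1 on the opposite strand but sharing no exon with it, and Ccr6 at chr17:8236043-8257141 (plus strand). Cxcr6 was at 43.9, 0.0925 and 92.0 FPKM in ND IEL and at 269.6, 0 and 253.3 in PA IEL. In LP it was at 124.6, 93.1 and 65.8 FPKM with ND and at 0, 0 and 48.9 with PA milk. Ordered by mean FPKM the groups ran PA IEL, ND LP, ND IEL and PA LP, and each group overlapped its neighbour in that order. Ccr6 had the same order with the same overlaps, at 27.9, 0 and 32.9 FPKM in ND IEL, 133.3, 0 and 117.0 in PA IEL, 116.9, 31.2 and 22.4 in ND LP, and 0.0768, 0 and 15.3 in PA LP.

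Both genes were above the floor in the same 8 libraries and at or under it in the same 4. Across the 12 libraries their log2(FPKM + 1) values had a Pearson r of 0.99 and a Spearman rho of 0.94, the highest of the 36 pairs of receptors. The points share depth and cell makeup, so this is a description of these libraries. Among all tested genes, Ccr6 was the one most like Cxcr6 (r = 0.987), followed by Dkk3 (0.983) and Tcf7 (0.982), and Cxcr6 was the one most like Ccr6, followed by Dkk3 (0.986) and Vrk2 (0.977). Tcf7 encodes TCF-1, a transcription factor of lymphocyte development. Since this pair varied together, the 250 bases before a RefSeq start of each gene (GRCm38.p6) are shown, for Ccr6 the first of its 2 starts, with matches to the motifs searched in capitals:
Cxcr6, chr9:123806227-123806476, plus strand: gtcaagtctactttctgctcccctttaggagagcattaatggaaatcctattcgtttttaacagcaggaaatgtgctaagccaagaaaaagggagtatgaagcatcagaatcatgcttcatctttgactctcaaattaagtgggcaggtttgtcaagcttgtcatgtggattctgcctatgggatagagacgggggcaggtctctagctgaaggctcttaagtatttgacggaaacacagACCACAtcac
Ccr6, chr17:8235793-8236042, plus strand: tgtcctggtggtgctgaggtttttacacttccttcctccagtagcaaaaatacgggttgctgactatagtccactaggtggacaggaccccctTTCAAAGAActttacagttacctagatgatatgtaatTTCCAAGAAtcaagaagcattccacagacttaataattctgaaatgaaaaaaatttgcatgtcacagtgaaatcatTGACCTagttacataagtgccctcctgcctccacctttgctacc
The motifs searched, on both strands, were AGGTCA (a nuclear receptor half-site), TGTGGT (RUNX), TTCNNNGAA (STAT) and AGGTGTGA (T-box), which 14.0%, 14.0%, 7.0% and 1.1% of 32851 mouse promoter windows of the same length held. The Cxcr6 window holds the RUNX letters on the opposite strand, 10 to 5 bases before the start. The Ccr6 window holds the half-site on the opposite strand, 44 to 39 bases before the start, and the STAT letters from 157 to 149 and from 120 to 112 bases before it. The window before the other RefSeq start of Ccr6, chr17:8242276-8242525, holds 0 matches and is not shown. No motif match was shared by the pair. RefSeq windows were found for 7 of the 9 receptors, and the RUNX letters were also in those of Cx3cr1 and Cxcr3. A match to letters is a description and not a binding site.

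In LP, Cxcr6 and Ccr6 were lower with PA milk in every library than in any ND library, and in IEL the groups overlapped. The log2 fold change of Cxcr6 in LP was -4.65 (SE 2.11, limma adjusted p = 0.979) and that of Ccr6 -4.10 (SE 1.88, limma adjusted p = 0.979). PA LP replicate 3 alone, with 8 receptors above the floor, still lay below the lowest ND LP library for both genes, at 48.9 against 65.8 FPKM and at 15.3 against 22.4 FPKM. In IEL the log2 fold changes were 1.31 (SE 2.11) and 1.34 (SE 1.88), and they depended on single libraries. For Cxcr6 the value was 3.98 without PA IEL replicate 2, -0.66 without ND IEL replicate 2, and -0.06 and -0.01 without PA IEL replicates 1 and 3, and it was 0 with limma-voom. For Ccr6 the corresponding values without these libraries were 3.66, -0.32, 0.13 and 0.22. The difference between the layers in the effect of milk was -5.96 (SE 2.99, limma adjusted p = 1) for Cxcr6 and -5.44 (SE 2.66, limma adjusted p = 1) for Ccr6. In ND, both genes had lower means in IEL than in LP, by log2 fold changes of -2.48 and -2.17, and these came to -0.52 and -0.51 without ND IEL replicate 2. In PA milk the means were higher in IEL, by 3.48 and 3.27, with overlapping groups.

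In 3 of the 4 libraries without Cxcr6 and Ccr6, T cell transcripts were also near 0. Of 11 T cell marker genes, among them the chains Cd3d, Cd3e and Cd3g of the T cell receptor complex, 0 reached 1 FPKM in replicate 2 of ND IEL, PA IEL and PA LP, while 3 to 11 did in the other 9 libraries. The summed T cell list was 0.160 to 536.4 FPKM in ND IEL, 0.131 to 161.9 in PA IEL, 166.2 to 381.3 in ND LP and 0.187 to 340.6 in PA LP. Its level did not follow Cxcr6 and Ccr6 everywhere. PA IEL replicate 1, which had the highest Cxcr6 of all libraries, had a T cell sum of 161.9 FPKM. There, 8 of the 11 genes were listed at 0, among them Cd3d, Cd3e, Cd3g and Cd247. The 3 that reached 1 FPKM were Cd8b1 at 128.8 FPKM, its highest value, Cd5 at 23.2 and Lat at 9.87. In PA LP replicate 1 the T cell list summed to 106.6 FPKM with Cxcr6 at 0. The part of T cells in the receptor values was not tested.

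**Figure D4:**
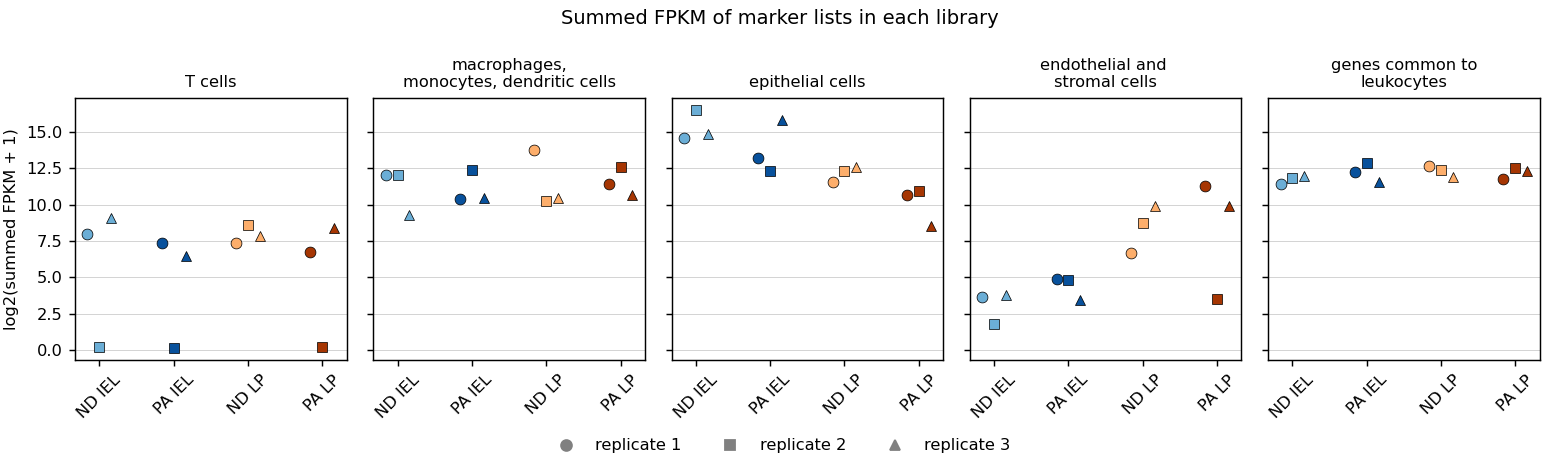
Log2 of the summed FPKM (plus 1) of 5 marker lists in each library, by group, with the replicate number as the shape of the point. The T cell sum is near 0 in replicate 2 of ND IEL, PA IEL and PA LP, the epithelial sum is highest in IEL libraries, and the sum of genes common to leukocytes varies least.

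CCR9 is the receptor of CCL25, which the epithelium of the small intestine makes, and brings lymphocytes to this tissue. Ccr9 lies at chr9:123678439-123784330 (GRCm38, plus strand), and some of its annotated exons overlap those of Slc6a20a on the opposite strand and of Gm17200. With an unstranded kit the reads of such overlaps cannot be told apart. It was at 32.3, 92.9 and 81.6 FPKM in ND IEL and at 49.6, 124.2 and 14.9 in PA IEL, the only receptor beside Ccr2 that was above the floor in all 6 IEL libraries at over 10 FPKM. In LP it was at 52.7, 13.3 and 4.91 FPKM with ND and at 0.0189, 0.0443 and 34.3 with PA milk, the first 2 of these resting on 1 and 2 reads. The groups ran ND IEL, PA IEL, ND LP and PA LP by mean FPKM, each overlapping the next. Ccr9 was thus higher on average in IEL than in LP under both milks, with log2 fold changes of 1.94 (SE 1.40, limma adjusted p = 0.987) in ND and 3.80 (SE 1.40, limma adjusted p = 0.406) in PA milk. The PA milk value was 2.94 without PA LP replicate 1 and 5.5 without PA LP replicate 3. PA milk against ND gave -0.45 (SE 1.40) in IEL and -2.31 (SE 1.40) in LP, both with overlapping groups. The ligand gene Ccl25 was at 634.5, 650.0 and 717.6 FPKM in ND IEL, at 202.8, 0.171 and 1017 in PA IEL, at 0.339, 210.6 and 242.4 in ND LP and at 44.3, 102.2 and 6.35 in PA LP.

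CCR2 is the receptor of CCL2 and related chemokines and is best known on monocytes, and some lymphocytes carry it. Ccr2 lies at chr9:124101950-124113557 (plus strand), on the same chromosome as Cxcr6 and Ccr9. It was at 26.2, 36.4 and 39.9 FPKM in ND IEL, 24.7, 101.7 and 14.3 in PA IEL, 14.9, 32.2 and 9.22 in ND LP, and 0, 0 and 22.6 in PA LP. The tightest of these groups was ND IEL, with 34.2 ± 7.10 FPKM (SD, n = 3). By mean FPKM the order was PA IEL, ND IEL, ND LP and PA LP, with neighbours overlapping. Ccr2 was higher on average in IEL than in LP with PA milk (log2 fold change 3.58, SE 1.29, limma adjusted p = 0.404), and less so in ND (0.98, SE 1.29, limma adjusted p = 1). In LP it was lower on average with PA milk (-2.61, SE 1.29, limma adjusted p = 0.979), and in IEL the difference was -0.02 (SE 1.29). Ccr2 and Ccr9 formed the other close pair, with r = 0.94 and rho = 0.82 over the 12 libraries, and both stayed high in the IEL libraries in which Cxcr6 and Ccr6 were at the floor. The genes most like Ccr2 were Rbm6 (r = 0.971), L3mbtl2 (0.968) and Tex2 (0.965), and those most like Ccr9 were Phkg2 (0.943), Ccr2 (0.937) and Gpcpd1 (0.932). Macrophage genes moved with this pair in some libraries and not in others. PA IEL replicate 2, with the highest Ccr2 and Ccr9 of all libraries, had the macrophage complement genes C1qb and C1qc at 1173 and 1636 FPKM, also the highest. C1qa, of the same complex, was at 191.2 FPKM there and not at its highest. Itgax was at its highest there, at 77.5 FPKM, while Mertk, Fcgr1, Cd14 and Ly6c2 were at 0 to 0.123. In PA LP replicate 2, C1qa, C1qb and C1qc were at 909.1, 1004 and 1407 FPKM with Ccr2 at 0. The 15 genes of macrophages, monocytes and dendritic cells summed to 615.9 to 4168 FPKM in ND IEL, 1331 to 5287 in PA IEL, 1235 to 13490 in ND LP and 1639 to 6183 in PA LP, and their part in the receptor values was not tested.

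CCR7, the receptor of CCL19 and CCL21, takes lymphocytes and dendritic cells into lymph vessels and lymph nodes. Ccr7 (chr11:99144196-99155077, minus strand) was the main receptor transcript of LP. It was at 132.9, 130.6 and 117.9 FPKM in ND LP, a mean of 127.1 ± 8.04 (SD, n = 3), and at 13.8, 0 and 13.0 in ND IEL, where no library came near that level. With PA milk it was at 34.0, 0.0516 and 168.9 FPKM in LP and at 29.7, 0.0412 and 0.0447 in IEL. The order by mean FPKM was ND LP, PA LP, PA IEL and ND IEL, in which neighbours overlapped. The ND groups, which are not neighbours, did not overlap. The log2 fold change of IEL against LP in ND was -4.43 (SE 1.77, limma adjusted p = 0.605), with a range of -6.37 to -3.15 over the alternatives and adjusted p-values of 0.0847 to 1. It was -2.52 (SE 1.77, limma adjusted p = 0.646) in PA milk, with overlapping groups. PA milk against ND gave -2.80 (SE 1.77, limma adjusted p = 0.979) in LP, which came to -0.73 without PA LP replicate 2, and -0.88 (SE 1.77) in IEL. The genes most like Ccr7 over the 12 libraries were Klhl24 (r = 0.979), Tpst1 (0.963) and Ms4a6b (0.954).

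CXCR5, the receptor of CXCL13, directs B cells and some other lymphocytes into follicles. Cxcr5 lies at chr9:44511787-44561877 (minus strand), and an annotated exon overlaps Bcl9l on the opposite strand, which the unstranded reads cannot tell apart. It was at 25.0, 6.46 and 21.0 FPKM in ND LP and at 0, 0 and 0.0380 in PA LP, the last being 1 read in 11.71 M. In IEL it was at 3.26, 0 and 0 FPKM with ND and at 10.8, 0 and 16.5 with PA milk. By mean FPKM the groups ran ND LP, PA IEL, ND IEL and PA LP, each overlapping the next in the order. Cxcr5 was the only receptor at or under the floor in all 3 PA LP libraries, including replicate 3, where 8 of 9 receptors were detected. Against the highest floor of 3 reads in a PA LP library, 0.114 FPKM, the ND LP mean of 17.5 FPKM was at least 154-fold higher. The fitted log2 fold change of PA milk against ND in LP was -4.00 (SE 1.19, limma adjusted p = 0.979), which depends on the pseudocount and is no bound. It was -3.66 to -4.56 when single libraries were left out. In IEL the value was 1.86 (SE 1.19, limma adjusted p = 0.947), positive in all alternatives run (1.08 to 3.86). The effect of milk differed between LP and IEL by -5.87 (SE 1.68, limma adjusted p = 1), where the smallest adjusted p over the alternatives was 0.776. In ND, Cxcr5 was lower in every IEL library than in any LP library, with a log2 fold change of -3.32 (SE 1.19, limma adjusted p = 0.495), and in PA milk the mean was higher in IEL by 2.54 (SE 1.19, limma adjusted p = 0.466).

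B cell genes moved in part with Cxcr5, and their part in its values was not tested. In ND LP the B cell genes Ms4a1 (CD20) and Cd79a were at 138.2, 4.44 and 12.8 FPKM and at 608.1, 22.7 and 99.5 FPKM, the lowest of each in replicate 2, which also had the lowest Cxcr5. In PA LP, Ms4a1 was listed at 0 in all 3 libraries and Cd79a was at 0, 0.0815 and 127.8 FPKM. In PA IEL replicate 3, Cxcr5 was at 16.5 FPKM with Ms4a1 at 0.0427 and Cd79a at 0.0705 FPKM. The 9 measured genes of the B and plasma cell list summed to 141.2 to 3567 FPKM in ND IEL, 64.2 to 18270 in PA IEL, 1176 to 6779 in ND LP and 38.3 to 7813 in PA LP. The highest sum of each group was mostly 1 gene, Igj. It was at 3468 FPKM in ND IEL replicate 3, 17870 in PA IEL replicate 1, 6584 in ND LP replicate 3 and 7591 in PA LP replicate 3. In PA IEL replicate 1, Ms4a1 was listed at 0. The genes most like Cxcr5 were Rfx5 (r = 0.925), Slc16a13 (0.915) and C030037D09Rik (0.910).

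CXCR3 binds CXCL9, CXCL10 and CXCL11, chemokines induced by interferon, and marks type 1 lymphocytes. Cxcr3 (chrX:101731535-101734269, minus strand) was highest in ND IEL. It was at 30.6, 26.4 and 56.9 FPKM there, a mean of 38.0 ± 16.5 (SD, n = 3), and at 0, 10.9 and 5.71 in ND LP, with no overlap between the groups. With PA milk, 1 library of each layer carried it: it was at 0, 0 and 70.6 FPKM in IEL and at 0, 0 and 21.4 in LP. The order by mean FPKM was ND IEL, PA IEL, PA LP and ND LP, and neighbours overlapped. The log2 fold change of IEL against LP in ND was 3.10 (SE 1.72, limma adjusted p = 0.864). In IEL, PA milk against ND gave -3.15 (SE 1.72, limma adjusted p = 0.947), lower on average in all alternatives run (-6.56 to -2.12), although PA IEL replicate 3 was above every ND IEL library. In LP the value was -0.61 (SE 1.72), although the mean FPKM was higher with PA milk (7.12 against 5.55), and it was 0.13 without PA LP replicate 1. Unlike Cxcr6 and Ccr6, Cxcr3 was detected in ND IEL replicate 2, which had no T cell marker gene at 1 FPKM. Genes of NK cells and ILC1 went with Cxcr3 in some libraries and not in others, and not all alike. Gzmb, a granule protease, was at 407.1, 0 and 649.4 FPKM in ND IEL and listed at 0 in all 3 PA IEL libraries. Klrd1 was at 31.1, 27.1 and 39.0 FPKM in ND IEL and at 0, 6.6 and 0 in ND LP. It was at 36.4, 0 and 13.9 FPKM in PA IEL. In PA IEL replicate 2, with Cxcr3 at 0, Nkg7 was at 671.9 FPKM and Klrk1 at 83.9. That list of 10 genes summed to 56.2 to 1296 FPKM in ND IEL, 95.4 to 755.9 in PA IEL, 52.2 to 138.8 in ND LP and 103.0 to 228.2 in PA LP. The genes most like Cxcr3 were 1700029G01Rik (r = 0.986), 2610029I01Rik (0.957) and Cyp4b1 (0.950).

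CXCR4, the receptor of CXCL12, is carried by most leukocytes. Cxcr4 (chr1:128588199-128592293, minus strand) was at 15.2, 0.0486 and 10.02 FPKM in ND IEL, 19.4, 2.13 and 0.934 in PA IEL, 55.7, 10.1 and 6.11 in ND LP, and 0, 10.8 and 10.3 in PA LP. All neighbours in the order ND LP, ND IEL, PA IEL and PA LP overlapped. It was the only receptor above the floor in PA LP replicate 2, at 10.8 FPKM, where Cxcl13 was at 152.6 FPKM and no T cell marker gene reached 1 FPKM. PA milk against ND gave -0.20 (SE 1.5) in IEL and -1.69 (SE 1.5) in LP, and IEL against LP gave -1.53 (SE 1.5) in ND and -0.03 (SE 1.5) in PA milk. The 95% intervals of these differences, -3.37 to 2.98, -4.87 to 1.48, -4.70 to 1.65 and -3.21 to 3.14, all include 0 and are several log2 units wide, so a difference was not detectable with these libraries. The genes most like Cxcr4 were Ppp3cc (r = 0.904), Ddx31 (0.888) and Hcfc1 (0.874).

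CX3CR1, the receptor of CX3CL1, is best known on gut macrophages. Cx3cr1 lies at chr9:119901616-120069879 (minus strand), a span that holds several other genes, and an exon overlaps the antisense gene Gm33858. It was above the floor in 4 libraries only: at 0.987 and 11.3 FPKM in ND IEL replicates 1 and 3, at 16.4 in ND LP replicate 1 and at 1.53 in PA LP replicate 3. It was listed at 0 in the other 8, among them all of PA IEL. The groups ran ND LP, ND IEL, PA LP and PA IEL by mean FPKM, all neighbours overlapping. Its log2 fold changes were -1.54 (SE 1.09) and -0.93 (SE 1.09) for PA milk against ND in IEL and LP, and 0.16 (SE 1.09) and -0.45 (SE 1.09) for IEL against LP in ND and PA milk. Several of these rest on 1 library: without ND LP replicate 1, the value in LP was 0.45. The macrophage gene Lyz2 was at 82.3 to 10380 FPKM in all 12 libraries, highest in ND LP replicate 1, where Cx3cr1 was also highest, and it was at 1917 FPKM in PA LP replicate 2 with Cx3cr1 at 0. The genes most like Cx3cr1 were Rarb (r = 0.926), Ddx19b (0.915) and Tmem231 (0.906).

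Read together by comparison, the receptors had lower means of log2(FPKM + 1) with PA milk in LP, with 0 of 9 past the adjusted threshold. Each of the 9 had a negative log2 fold change there, with a median of -2.61, while over all tested genes the median was -0.36 and 37.4% were positive. Other lists had mostly lower log2 means in the same comparison: 15 of 16 genes of ILC3s and the gate (median -1.66), 16 of 16 epithelial genes (-2), 8 of 10 T cell genes (-1.95), 6 of 7 B and plasma cell genes (-3.71) and 11 of 11 other chemokine receptors (-0.60). The genes common to leukocytes were lower in 17 of 30 (-0.21), and those of macrophages, monocytes and dendritic cells in 4 of 15 (0.57). The part of these cells in the receptor values was not tested. The groups were separated, ND LP above PA LP, for 3 of 9 receptors (Cxcr6, Ccr6 and Cxcr5), against 6.6% of all genes. The other way, 0 of 9 were separated, against 2.97%. Without the 2 libraries with the fewest genes, 8 of 9 were lower with a median of -1.85. This kept PA LP replicate 1, in which 1 of 9 receptors was above the floor. PA LP replicate 3 had Ccr7 and Cxcr3 above every ND LP library. With libraries scaled on leukocyte genes or on the upper quartile, the median over all genes was -0.16 or -0.62 and the receptors' median -2.45 or -2.79. Scaling cannot move values listed at 0, which were 6 of 9 receptors in each of PA LP replicates 1 and 2. In IEL, PA milk gave 3 receptors with a higher log2 mean (Cxcr6, Ccr6 and Cxcr5) and 6 with a lower one, a median of -0.20 against -0.30 over all genes. There, 0 of 9 were separated in either direction, against 2.97% of all genes with PA IEL above and 5.22% with ND IEL above. The effect of milk was lower in LP than in IEL for 7 of 9 receptors, all but Cxcr3 and Cx3cr1, with a median of -1.92 against -0.03 over all genes.

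Between the layers in ND, 4 receptors had a higher log2 mean in IEL and 5 a higher one in LP. Among the 4 was Cx3cr1, whose mean FPKM was higher in LP. Separated with IEL above was 1 of 9 (Cxcr3), against 9.95% of all genes, and separated with LP above were 2 of 9 (Ccr7 and Cxcr5), against 9.34%. With PA milk, 6 receptors had a higher log2 mean in IEL, led by Ccr9 and Ccr2, and 3 in LP, Ccr7, Cx3cr1 and, by 0.03, Cxcr4. No receptor was separated there with IEL above, against 4.06% of all genes, or with LP above, against 4.51%. The median log2 fold change of the receptors was -1.53 in ND and 2.54 in PA milk, against -0.09 and -0.03 over all genes. The layer comparison in PA milk uses the PA LP libraries that also enter the milk comparison in LP, so these values share samples.

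**Figure D5:**
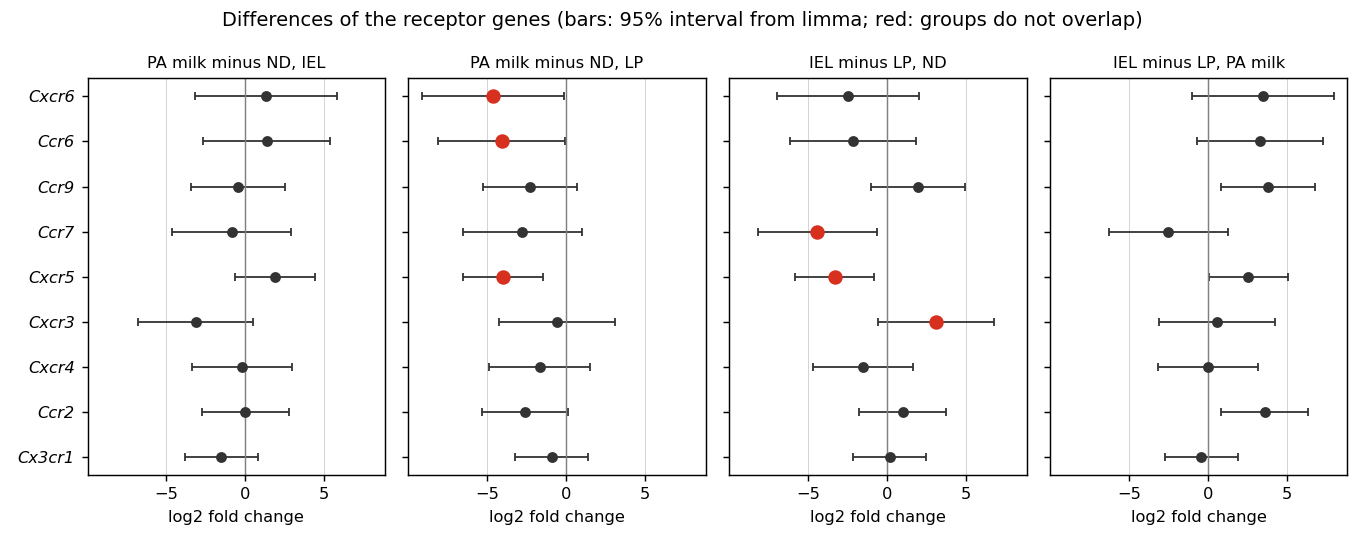
Log2 fold change of each receptor gene in the 4 comparisons of groups, on log2(FPKM + 1), with the 95% interval from limma as the bar; red points mark groups that do not overlap. In LP all 9 points lie below 0 with 3 in red, and in ND Ccr7 and Cxcr5 lie below 0 and Cxcr3 above 0 in red.

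Other chemokine receptors were counted for comparison. Of 15 in the table, 11 were tested, and 0 passed the adjusted threshold in any comparison. With PA milk, 7 of 11 had a higher log2 mean in IEL and 0 of 11 in LP, with medians of 0.30 and -0.60. In ND 1 of 11 had a higher log2 mean in IEL than in LP, and with PA milk 8 of 11 did. Darc, now named Ackr1, a decoy receptor of venular endothelium, had the highest mean of the list. It was at 0 to 0.493 FPKM in the 6 IEL libraries and in PA LP replicate 2 at 0.288, and at 235.7, 640.1 and 227.6 FPKM in ND LP and 1522 and 1700 FPKM in PA LP replicates 1 and 3. Cxcr7, now Ackr3, a scavenger of CXCL12 also known on endothelium, was at 0 to 4.31 FPKM in IEL and at 34.0 to 253.7 FPKM in the same 5 LP libraries. The endothelial and stromal list of 12 genes, Pecam1 among them, summed to 2.44 to 13.2 FPKM in ND IEL, 9.78 to 28.8 in PA IEL, 101.2 to 955.1 in ND LP and 10.7 to 2499 in PA LP, the lowest LP value being PA LP replicate 2. Ccrl2, Ccr3 and Ccr8, the other receptors with the highest means, reached 352.7, 85.8 and 76.1 FPKM at most. Ccr3, known from eosinophils, was above 0 in all 12 libraries and highest in replicate 2 of PA IEL (85.8 FPKM) and of PA LP (45.6 FPKM), the libraries with the fewest genes.

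Of 17 ligand genes of the 9 receptors, 12 were tested. In ND 1 of them passed the adjusted threshold between the layers, Ccl21a, a CCR7 ligand of lymphatic vessels and stroma. It was at 0, 0.119 and 0.0494 FPKM in ND IEL and at 19.4, 168.4 and 518.2 in ND LP (log2 fold change -6.85, SE 1.10, limma adjusted p = 0.0449). It was listed at 0 in all 6 PA milk libraries. The call was lost without the filter, with the replicate number as a block, with limma-voom, and without any 1 of ND IEL replicates 2 and 3 and ND LP replicates 2 and 3, each of which left 0 genes called between the layers in ND. Reads of Ccl21a cannot be told apart with certainty from those of its near-identical copies Ccl21b and Ccl21c, which were listed at 0 in all 12 libraries. Over the list, 3 of 12 ligands had a higher log2 mean in IEL than in LP in ND and 3 of 12 with PA milk, and PA milk gave 2 of 12 a higher log2 mean in IEL and 2 of 12 in LP. In LP, Cxcl16 and Cxcl10 had lower log2 means with PA milk, each with PA LP replicate 2 near 0 and another PA LP library above every ND LP library. Cxcl16, the CXCR6 ligand, was at 45.6, 9.19 and 24.6 FPKM in ND LP and at 121.2, 0.0407 and 35.1 in PA LP, and at 0 to 18.0 in the 6 IEL libraries. Cxcl10 was at 58.3 to 153.0 FPKM in ND LP, at 801.4, 0 and 662.0 in PA LP, and at 2.89 or less in IEL. Cx3cl1 was at 17.45 to 55.8 FPKM in the 6 ND libraries, at 96.2, 0.0496 and 115.6 in PA IEL and at 0.0530, 0 and 46.9 in PA LP.

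Of 23 genes that act below chemokine receptors (G protein subunits, arrestins, kinases, regulators of G protein signalling, and the Rac and integrin machinery), 0 passed the adjusted threshold in any comparison. In LP, 15 of 23 had a higher log2 mean with PA milk, with a median of 0.29. Gnai2, the inhibitory G protein subunit through which these receptors signal, was at 140.6 to 570.9 FPKM in all 12 libraries, and at 570.9 and 301.7 in PA LP replicates 1 and 2. Coro1a and Rac2, of the actin machinery of leukocytes, were at 395.6 and 631.7 FPKM and at 67.7 and 102.9 FPKM in those libraries, and Gnb1 at 195.3 and 179.8 FPKM. Rgs1, which damps chemokine signals, was at 0.130 FPKM in PA IEL replicate 2 and at 28.0 to 1090 in the other 11 libraries. The other counts with a higher log2 mean were 9 of 23 for PA milk in IEL, 7 of 23 for IEL against LP in ND and 9 of 23 in PA milk.

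Of 12 further genes of gut and tissue homing, 11 were tested and 0 passed the adjusted threshold. Klf2, a transcription factor that drives exit from tissue, and S1pr1, its target and the receptor for sphingosine 1-phosphate in lymph and blood, lay higher in LP, as did Ccr7. Klf2 was at 19.4 to 57.1 FPKM in the 6 IEL libraries and at 309.5, 532.1 and 313.7 in ND LP and 452.3, 64.2 and 975.3 in PA LP, with no overlap between the layers under either milk. Its log2 fold change of IEL against LP was -3.59 (SE 0.86, limma adjusted p = 0.218) in ND and -3.03 (SE 0.86, limma adjusted p = 0.253) in PA milk. S1pr1 was at 0.0258 to 3.65 FPKM in IEL and at 56.8 to 348.3 in LP apart from PA LP replicate 2, listed at 0. Both genes are also expressed by endothelium, whose markers were higher in the same LP libraries, and their part was not tested. Cd69 and Selplg had means of 99.1 and 177.4 FPKM over the 12 libraries. Over the list, 4 of 11 had a higher log2 mean with PA milk in IEL and 3 of 11 in LP, and 3 of 11 and 5 of 11 were higher in IEL than in LP in ND and PA milk.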

How the data were processed

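RNA of ILC3s from 12 samples, 4 groups of 3 by layer and milk, was analysed, with groups and replicate numbers from the sample labels. The authors mapped reads to mm10 and quantified genes with the Cufflinks tools, and the submitters' processing notes name TopHat2 2.1.1, Bowtie2 2.2.8.0, SAMtools 0.1.18, Cufflinks 2.2.1 and Cuffdiff 2.2.1. They deposited FPKM values for 23284 genes, which all comparisons used. A second deposited table, of counts, holds what are treated as a score: the authors scaled the counts of each library by a factor and rounded them, with the ratio to FPKM constant within 1% for 94.0% of genes, so no count model was used on it. Its totals were 9376529 to 11710874 per library. From 3713 genes, low values lay on steps of 0.684 to 1.09, of which 91.0% to 100.0% were within 0.05 of a whole multiple. Taking a step as 1 read gave the reads and the floor of 3 reads per library.

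Log2(FPKM + 1) of the 12502 tested genes was fitted with limma 3.58.1 (R 4.3.3) as 4 group means with a variance trend, with Benjamini-Hochberg adjustment. The two-sided exact permutation test was used for single genes. Correlations are Pearson's r of log2(FPKM + 1). Tables and plots were made with Python 3.11.15, numpy 2.4.6, pandas 2.3.3, scipy 1.17.1 and matplotlib 3.10.9. The fit was tested on simulated reads of well-covered genes, with 1 common spread and no transcripts missing from single libraries. That test therefore does not cover the values near 0 seen here. All 9 receptors were named, of each further list the counts and up to 5 genes of highest mean FPKM, and for each receptor the 3 tested genes with the highest r; the genes of the gate and further marker genes were chosen after their values were seen. Values of some genes of the lists are not reported here. The receptors and lists were chosen with earlier results of these data known. Genes were placed on GRCm38 by the GENCODE vM21 annotation. The lists were other chemokine receptors, ligands, receptor signalling, homing, ILC3s and the gate, T cells, B and plasma cells, macrophages with monocytes and dendritic cells, NK cells and ILC1, epithelial cells, endothelial and stromal cells, and 30 genes common to leukocytes. Alternatives were scaling on leukocyte genes or the upper quartile, a pseudocount of 0.1, no filter, only the groups compared, a block for the replicate number, limma-voom on recovered reads and leaving out each library. Leaving out the 2 libraries with the fewest genes was added after seeing the data.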

Additional observations from a re-analysis of the deposited data

How the results depend on the processing

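In the 20 alternatives run, 0 of the 9 receptors passed the adjusted threshold in any comparison, as with the reported values, and the smallest adjusted p from limma was 0.0847, for Ccr7 between the layers in ND with only the groups compared. Of 891 receptor values under alternatives, 850 kept their direction, 2 were 0 (Cxcr6 for PA milk in IEL with limma-voom, and Cx3cr1 between the layers in PA milk without PA LP replicate 3) and 39 turned it, in 12 of the 45 combinations of receptor and comparison. Many of these values could not turn. No filter, only the groups compared and the replicate block (45, 36 and 45 values) leave each log2 fold change as it was. Leaving out 1 library does not alter the comparisons without its group. The count of kept directions is therefore no measure of stability. Cxcr4 turned with a pseudocount of 0.1, limma-voom and without the 2 libraries with the fewest genes, to 0.32, 0.51 and 0.14 for PA milk in IEL and 0.67, 1.26 and 0.91 between the layers in PA milk. Ccr2 in IEL was 0.04 with limma-voom, and leaving out those 2 libraries gave 0.13 for Cxcr3 in LP. When single libraries were left out, the values for PA milk in IEL ranged from -0.66 to 3.98 for Cxcr6, -0.32 to 3.66 for Ccr6, -1.17 to 0.32 for Ccr9, -1.42 to 0.55 for Cxcr4 and -0.81 to 0.57 for Ccr2. For PA milk in LP they ranged from -2.11 to 0.13 for Cxcr3 and -1.61 to 0.45 for Cx3cr1. The difference between the layers ranged from -3.52 to 0.15 for Ccr7 and -0.43 to 1.98 for Cx3cr1. Between the layers, Cx3cr1 in ND ranged from -0.88 to 1.54, and in PA milk Cxcr3 ranged from -1.49 to 2.05 and Cxcr4 from -1.21 to 0.65. The cause was not tested.

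The number of genes called over the whole table moved more. Between the layers in ND, 4 genes were called, and 1 with upper quartile scaling, 1 with a pseudocount of 0.1, 0 without the filter, 92 with only the groups compared, 0 with limma-voom, 113 without the 2 libraries with the fewest genes and 0 to 65 without single libraries, the most without PA LP replicate 2. In PA milk, 18 were called, and 8 with upper quartile scaling, 3 without the filter, 1 with only the groups compared, 314 without the 2 libraries with the fewest genes and 1 to 289 without single libraries, the fewest without PA LP replicate 1 and the most without PA LP replicate 2. For PA milk in LP, 0 were called, 6 with limma-voom and 0 to 8 without single libraries (8 without PA LP replicate 3), and in IEL 0 to 1 without single libraries (1 without PA IEL replicate 3). With the replicate block, 3 genes were called for PA milk in LP, 1 for the difference between the layers, 0 between the layers in ND and 5 in PA milk. Over all tested genes, deviations of same-numbered libraries had r of -0.03 to 0.06 between the layers and -0.12 to 0.07 between the milks. The numbers were therefore not taken as pairs. Such an r cannot settle whether these libraries share an animal or a batch. Replicate 2 held 7863, 4390 and 5637 genes in ND IEL, PA IEL and PA LP, but 11158 in ND LP. In this balanced layout the replicate block cannot change a log2 fold change, only its SE and p. The SE went from 2.11 to 1.62 for Cxcr6 and from 1.40 to 1.48 for Ccr9 (PA milk in LP). With 3 libraries a group and whole transcripts missing from some libraries, changes of several log2 units can go uncalled.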
